A study of Mus musculus with 6 samples.

Results

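A set of 35 genes of glycolysis and of the response to low oxygen was followed through 6 droplet single-cell RNA libraries of mouse dendritic cells (DCs) and skin wounds. The members were chosen by function, and each was found among the 31053 genes of the feature list. They are 20 genes of glucose uptake, glycolysis and lactate export, 13 known targets of hypoxia-inducible factor (HIF), and 2 HIF alpha subunits. The question put to them was whether the higher Vegfa level of some of these cells, the RNA of an angiogenic growth factor, came with a hypoxia programme.

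Glycolysis breaks glucose down to pyruvate in the cytosol, and Ldha turns pyruvate into lactate, which leaves the cell through monocarboxylate transporters. HIF is a pair of an alpha subunit, Hif1a or Epas1, with Arnt. With oxygen present, prolyl hydroxylases such as Egln1 and Egln3 mark the alpha subunit protein for destruction, and without it the pair binds short DNA motifs and raises transcription of glycolytic genes, of mitophagy receptors and of Vegfa itself. Activated DCs and neutrophils are known for heavy use of glycolysis, and HIF can also be raised by immune signals in cells that have oxygen. RNA levels of Hif1a do not report the level of its protein.

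The study asked what loss of Ndrg2 does to DCs and to wounds that receive them. Bone marrow-derived DCs of wild-type C57BL/6 mice, grown with GM-CSF, gave 3 libraries. The first held untreated DCs, the second held DCs that received 1 micromolar vitamin D3 (VD3) for 24 h from day 7 of culture, and the third held DCs after CRISPR-knockout of Ndrg2 (Ndrg2-KO). The knockout cells took up Cas9 protein with a mix of 3 guides by nucleofection, and the untreated DCs were not nucleofected, so the knockout and the procedure cannot be told apart in that comparison. The other 3 libraries came from splinted excisional skin wounds on mice of 6 weeks, explanted on day 10. The study wounded wild-type C57BL/6J and diabetic db/db mice. Its account of these libraries names no strain but takes day 10 from healing curves of wild-type wounds. The wounds carried hydrogels seeded with control DCs, hydrogels seeded with Ndrg2-KO DCs, or blank hydrogels without cells. The methods give 5 mice per wound group, and how their tissue entered the library is not given in the sources used here. The labels call the control DCs of the wounds untreated, whereas the methods of the study describe non-targeting guides, and which holds is not settled here. Each group was thus 1 library, so no difference below has a replicate check, no p-value is given, and every 95% interval covers counting error only.

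After filtering, 7257 untreated, 8825 VD3 and 7969 Ndrg2-KO DCs remained, with 132574308, 116461484 and 143627482 unique molecular identifiers (UMIs). The wound libraries kept 1948, 5681 and 3403 cells in the order control DCs, Ndrg2-KO DCs and blank, with 29675507, 49240341 and 34905741 UMIs. The median kept wound cell held 10795, 4415 and 5603 UMIs in that order. Levels below are UMIs of a gene per 1000000 UMIs of the library or cell class (CPM), and ratios are log2 ratios of CPM between libraries. A gene counted as compared when the 2 sums held at least 100 UMIs together, and as called when they differed at least 2-fold. Ndrg2 itself stood at 4.62 CPM in untreated, 1.42 in VD3 and 0.884 in Ndrg2-KO DCs, and at 6.1, 3.33 and 3.29 CPM in the wounds in the order given above. A level read at the transcript end does not check an edit, and Ndrg2 was lower in the VD3 DCs also.

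HIF binds the core motif ACGTG or GCGTG. In RefSeq windows of GRCm38.p6 that run from 250 bases before to 50 bases after the transcription start, 33 of the 35 members had an entry, the exceptions being Bnip3l and Epas1. ACGTG, read on either strand, was in a window of 23 of these 33 members (69.7%) against 21.8% of all 27025 genes in the table. GCGTG was in 63.6% of members against 35.2% of genes. The palindrome CACGTG, which holds ACGTG on both strands, was in 15.2% against 8.09%. The members were picked as known glycolytic genes and HIF targets, so this share is not independent of the choice, and a motif match is no binding site by itself.

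Below are 6 windows of 300 bases for genes the results turn on, 5′ to 3′ on the strand of the gene, with ACGTG and its complement in capitals. Bnip3 (chr7:138909457-138909756, minus strand), a mitophagy receptor, and Ankrd37 (chr8:45999801-46000100, minus), an ankyrin repeat protein, were higher in Ndrg2-KO DCs. Ldha (chr7:46845554-46845853, plus, the first of 2 windows) and Pgk1 (chrX:106186850-106187149, plus), an enzyme of the lower pathway, are glycolytic. Eno3 (chr11:70656926-70657225, plus), the muscle-type enolase, was lower in both treated DC libraries, and its window has no ACGTG but 1 GCGTG. Vegfa (chr17:46032328-46032627, minus) has none in the first of its 2 windows and 1 in the other.
Bnip3: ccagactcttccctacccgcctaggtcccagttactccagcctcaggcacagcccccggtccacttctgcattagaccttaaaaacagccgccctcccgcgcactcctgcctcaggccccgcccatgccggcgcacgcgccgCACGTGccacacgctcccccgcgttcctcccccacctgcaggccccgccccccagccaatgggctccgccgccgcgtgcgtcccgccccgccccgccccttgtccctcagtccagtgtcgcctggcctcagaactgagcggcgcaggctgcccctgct
Ankrd37: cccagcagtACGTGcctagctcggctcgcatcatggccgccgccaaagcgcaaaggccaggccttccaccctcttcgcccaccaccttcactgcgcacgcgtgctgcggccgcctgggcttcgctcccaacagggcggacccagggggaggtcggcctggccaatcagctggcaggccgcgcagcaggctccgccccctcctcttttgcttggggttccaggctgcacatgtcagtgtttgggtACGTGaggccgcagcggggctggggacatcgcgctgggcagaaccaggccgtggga
Ldha: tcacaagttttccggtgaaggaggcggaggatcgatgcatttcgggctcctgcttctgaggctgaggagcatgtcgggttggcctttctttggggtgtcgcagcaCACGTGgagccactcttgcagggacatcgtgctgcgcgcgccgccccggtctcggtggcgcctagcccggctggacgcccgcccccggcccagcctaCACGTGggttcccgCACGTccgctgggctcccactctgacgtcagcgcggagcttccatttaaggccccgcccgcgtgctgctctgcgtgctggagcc
Pgk1: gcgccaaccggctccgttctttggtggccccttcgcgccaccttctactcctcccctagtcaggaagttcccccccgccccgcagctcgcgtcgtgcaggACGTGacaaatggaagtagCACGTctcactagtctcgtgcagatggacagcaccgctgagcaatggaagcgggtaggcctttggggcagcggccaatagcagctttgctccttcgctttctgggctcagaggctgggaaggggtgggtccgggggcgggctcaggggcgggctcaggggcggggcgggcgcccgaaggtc
Eno3: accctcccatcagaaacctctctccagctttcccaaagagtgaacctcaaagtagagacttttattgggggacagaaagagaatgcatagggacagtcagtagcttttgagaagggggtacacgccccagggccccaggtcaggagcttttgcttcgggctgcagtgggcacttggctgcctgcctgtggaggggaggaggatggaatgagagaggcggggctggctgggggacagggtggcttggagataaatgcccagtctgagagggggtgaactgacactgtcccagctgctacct
Vegfa: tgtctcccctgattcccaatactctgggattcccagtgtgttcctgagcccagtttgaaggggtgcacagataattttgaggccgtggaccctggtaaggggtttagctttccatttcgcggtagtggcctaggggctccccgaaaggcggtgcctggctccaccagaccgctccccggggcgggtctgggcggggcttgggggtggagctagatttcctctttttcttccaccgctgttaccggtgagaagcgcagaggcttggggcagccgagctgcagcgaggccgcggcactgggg
The pair of overlapping matches in Bnip3 lies about -108 from the start. Ankrd37 has matches at -241 and -6, and Ldha has matches near -145, -48 and -34. Pgk1 has them at -150 and -131.

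Vegfa stood at 3.64 CPM in untreated, 14.4 in VD3 and 84.8 in Ndrg2-KO DCs, from 483, 1681 and 12182 UMIs. The level was thus lowest in untreated and highest in Ndrg2-KO DCs, with log2 ratios to untreated of 1.99 (1.84 to 2.14) in VD3 and 4.54 (4.41 to 4.68) in Ndrg2-KO DCs. The members did not follow this order as a set. Their 20 glycolysis genes summed to 5478 CPM in untreated, 4588 in VD3 and 5833 in Ndrg2-KO DCs. The 13 HIF targets summed to 753, 764 and 996 CPM. VD3 DCs thus had 3.96 times the Vegfa of untreated DCs beside a lower glycolysis sum and a HIF target sum 1.02 times as high. That HIF target sum leans on a few abundant genes. Mif, at 305 CPM in untreated and 279 in VD3 DCs, and Higd1a, at 173 and 146, were lower with VD3. Of the 13 targets, 9 were above 0 and 4 below, where 5230 of 12296 genes were above 0.

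In Ndrg2-KO against untreated DCs, 6 of the 34 members compared were called higher, where 9.12% of all genes were, and 2 were called lower, where 7.94% of genes were. The member median was 0.26 on the log2 scale against -0.059 over all genes. Of the 6 members, 4 were HIF targets. With the mean over cells in place of summed UMIs, 3 of the 6 were still called, Bnip3 (1.08), Hilpda (1.14) and Hif1a (1.42), while Ankrd37, Bnip3l and Pfkl had 0.82, 0.81 and 0.88. Bnip3 was at 14.4 CPM in untreated, 23.2 in VD3 and 36.8 in Ndrg2-KO DCs, and its relative Bnip3l at 144, 168 and 314. Both mitophagy receptors were lowest in untreated and highest in Ndrg2-KO DCs, with log2 ratios of Ndrg2-KO to untreated of 1.35 (1.27 to 1.43) for Bnip3 and 1.13 (1.10 to 1.15) for Bnip3l. Ankrd37 was at 4.36, 4.08 and 15.6 CPM, so it was high only in the knockout library among these 3, with a log2 ratio to untreated of 1.84 (1.70 to 1.97). Hilpda, which holds fat in lipid droplets by blocking a lipase, was at 8.77, 10.5 and 22 CPM with a log2 ratio of 1.32 (1.23 to 1.42).

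The other members called higher were Hif1a and Pfkl, the liver-type phosphofructokinase. Hif1a RNA was at 114, 198 and 294 CPM in untreated, VD3 and Ndrg2-KO DCs, the same order as Vegfa, and its log2 ratios to untreated were 0.79 (0.77 to 0.82) and 1.37 (1.34 to 1.39). Pfkl was at 29.2, 39.8 and 66.2 CPM, with 1.18 (1.13 to 1.24) for the knockout. Eno3 was at 39.6, 10.3 and 7.8 CPM, high in untreated DCs alone, and its log2 ratios were -1.94 (-2.03 to -1.85) in VD3 and -2.34 (-2.44 to -2.25) in Ndrg2-KO DCs. Adm, the vasodilator peptide adrenomedullin and a HIF target, was at 1.72, 3.47 and 0.258 CPM. It was highest in VD3 DCs, which had more Vegfa than untreated DCs, and lowest in Ndrg2-KO DCs, which had most, with a log2 ratio to untreated of -2.74 (-3.28 to -2.23) in the latter. Epas1, the other alpha subunit, was under 1 CPM in all 3 libraries.

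Several other members regarded as standard HIF targets differed less than 2-fold between whole libraries. Slc2a1, the main glucose transporter, was at 51.8 CPM in untreated, 29.9 in VD3 and 41.4 in Ndrg2-KO DCs, highest in the cells with least Vegfa. Ldha was at 517, 334 and 563 CPM, with no steady order. Egln3, a prolyl hydroxylase that HIF induces, was at 6.58, 5.68 and 5.25 CPM and Higd1a, a mitochondrial respiratory protein, at 173, 146 and 131, both lowest in the cells with most Vegfa. Egln1, the relative of Egln3, was at 40.6, 54.5 and 67.2 CPM and Pdk1, the kinase that closes pyruvate dehydrogenase, at 15.1, 19.8 and 20.2, both in the order of Vegfa. Gapdh was at 1746, 1684 and 1436 CPM, slightly lower in the knockout, and Pgk1 at 343, 309.9 and 492.

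In VD3 against untreated DCs, 2 of 35 members were called higher, where 3.68% of genes were, and 4 were called lower, where 6.61% of genes were. Those higher were Adm (1.01) and Epas1 (2.32, from 0.181 to 0.902 CPM). The count higher was 1 with all deposited barcodes or the mean over cells and 0 under 5% mitochondrial UMIs. Those lower were all of the glycolysis list. Pfkp, the platelet-type phosphofructokinase, was at 162, 43.7 and 114 CPM in untreated, VD3 and Ndrg2-KO DCs, and Hk2, the inducible hexokinase, at 37.4, 17.4 and 51.2. Both were lowest in VD3 DCs, with log2 ratios to untreated of -1.89 for Pfkp and -1.10 for Hk2. Slc16a1, a lactate transporter, had -1.03 and Eno3 the value given above. The glycolysis median was -0.42 and the HIF target median 0.27, against -0.077 over all genes.

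Between the DC libraries with more Vegfa, Ndrg2-KO against VD3, 7 of 35 members were called higher, where 12.1% of genes were, and 1 was called lower, where 8.08% of genes were. The 7 were Hk2 (1.55), Pfkp (1.39), the brain-type aldolase Aldoc (1.02), phosphoglycerate mutase Pgam1 (1.10), the neuronal enolase Eno2 (1.64), Ankrd37 (1.93) and Hilpda (1.06). Adm was the lower one (-3.75). With totals without mitochondrial and ribosomal protein genes, 4 members were higher and 3 lower. Of the 8 calls, 5 were kept under that setting, and 5 with the mean over cells. Vegfa differed by 2.55 (2.48 to 2.63) between these libraries.

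**Figure D1:**
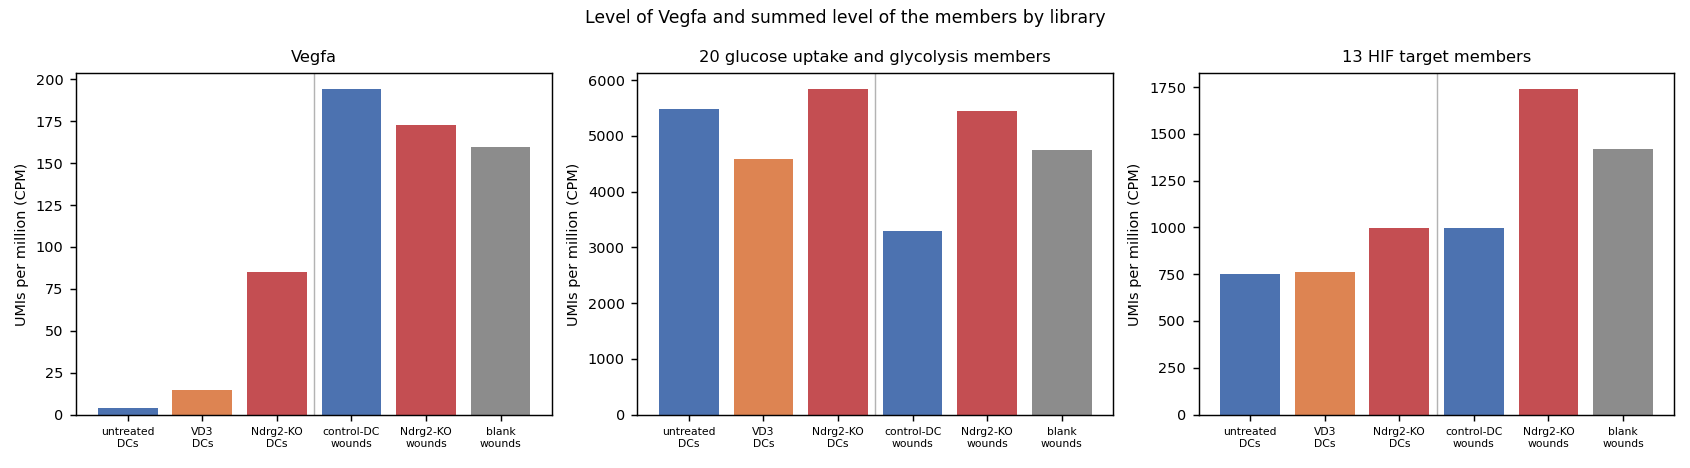
Bars give the level of Vegfa, of the 20 summed glycolysis members and of the 13 summed HIF target members in UMIs per 1000000 (CPM), on linear axes from 0, with 1 bar per library and no error bar because each group is 1 library. Vegfa climbs from 3.64 to 84.8 CPM across the DC libraries while the glycolysis sums stay between 4588 and 5833, and in wounds both sums are lowest with control DCs.

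The mix of cells differed between the DC libraries, so the members were also read within classes of clusters. Clusters were made without the members, Vegfa and Ndrg2 and were named by markers. Mature DC-like cells (Ccr7, Fscn1 and Ccl22 among their markers) made up 36.4% of untreated, 37.6% of VD3 and 25% of Ndrg2-KO DCs. Premature DC-like cells (Csf1r, Lyz2 and Fn1) made up 15.4%, 12.8% and 50.6%. Granulocyte-like cells made up 12.8%, 12.6% and 6.5%. The class named cycling made up 23.1%, 0.181% and 14.9%, but its VD3 share follows from the naming. Cluster 7, with 1089 VD3 and 105 untreated cells, passed on all 6 cycling markers and was left without a class because its leading genes included granulocyte and progenitor markers (Prtn3, Elane, Camp, Ngp) and no cycling marker. Cells without a class made up 10.5% of untreated, 34.3% of VD3 and 2.97% of Ndrg2-KO DCs. The mature, premature and cycling classes were each mostly a different cluster in each library compared, while granulocyte-like cells of untreated and VD3 DCs shared cluster 4. Of the 518 granulocyte-like Ndrg2-KO cells, 479 were another cluster, 11, which passed on 3 granulocyte markers against 8 in cluster 4. Mature DC-like cells were mainly cluster 2 in untreated, cluster 1 in VD3 and cluster 5 in Ndrg2-KO DCs, and premature DC-like cells were mainly clusters 9, 8 and 0 in the same order. Cluster 0 was led by Arg1, Apoe and Fabp4 together with Fn1, so the premature comparison is one of clusters 9, 8 and 0 rather than of an identical cell type. Clusters with a median under 1% mitochondrial UMIs were left without a class.

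Vegfa was higher in Ndrg2-KO than in untreated DCs in each of the 4 classes compared. In mature DC-like cells Vegfa was at 2.2 CPM in untreated, 12.6 in VD3 and 69.2 in Ndrg2-KO DCs, and in premature DC-like cells at 3.79, 22.6 and 100.1. Log2 ratios of Ndrg2-KO to untreated were 4.97 (4.67 to 5.29) and 4.72 (4.43 to 5.03). In cycling cells Vegfa was at 2.58 CPM in untreated and 55.7 in Ndrg2-KO DCs. Granulocyte-like cells had the highest untreated level, 19.3 CPM, beside 29 in VD3 and 93.4 in Ndrg2-KO DCs, the last mostly cluster 11 and the others cluster 4.

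In mature DC-like cells more members were higher in the knockout than in whole libraries. Of 34 members, 17 were called higher in Ndrg2-KO than in untreated cells, where 9.49% of genes were, and 2 were called lower, where 3.06% of genes were. The member median was 0.97 against 0.21 over all genes. HIF targets summed to 388 CPM in untreated, 450.5 in VD3 and 729.7 in Ndrg2-KO cells, and the glycolysis list to 3127, 2735 and 4137. Both sums were thus highest in the knockout, while VD3 cells were lower than untreated for glycolysis. The knockout class is mostly cluster 5. In cluster 2, the main untreated cluster, 159 Ndrg2-KO cells had glycolysis at 3094 CPM against 3130.4 in untreated cells. HIF targets there were at 433 against 387 CPM and Vegfa at 11.5 against 2.21.

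The higher members ranged from glucose entry to lactate export. At glucose entry, Slc2a1 was at 4.07 CPM in untreated, 3.71 in VD3 and 11.9 in Ndrg2-KO mature DC-like cells, a log2 ratio of 1.55 for the knockout, and Hk2 had 2.68. In the middle steps Pfkl (1.89), Aldoc (1.44), Pgam1 (1.46) and Eno1 (1.07) were called higher. At the lactate end, Ldha was at 122, 97.6 and 261 CPM (1.10), and the transporters Slc16a3 (1.44) and Slc16a1 (1.39) were also called. Eno3 stood apart at 109, 19.7 and 30.3 CPM, high in the untreated cells, with -1.84 for the knockout. Pfkfb3, whose product activates phosphofructokinase, is marked by high levels in mature DC-like cells of every library and was at 76.8, 41 and 87.8 CPM.

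Among HIF targets of mature DC-like cells, Ankrd37 was at 0.751 CPM in untreated, 0.926 in VD3 and 8.48 in Ndrg2-KO cells, with a log2 ratio of 3.50, the largest among the members there. Bnip3 was at 7.51, 9.95 and 25.8 CPM (1.78) and Hilpda at 1.84, 2.8 and 6.17 (1.74). Each was lowest in untreated and highest in knockout cells. Egln3 (2.02), Egln1 (1.04), Pdk1 (1.29) and the cytokine Mif (1.39) were called as well, and Hif1a RNA was at 59.9, 94.5 and 223 CPM (1.90). Adm was lower, at 0.876 CPM in Ndrg2-KO against 4.48 in untreated cells (-2.36).

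VD3 did not show this pattern in mature DC-like cells. None of 31 members was called higher against untreated, where 3.08% of genes were, and 3 were called lower, where 3.47% of genes were. These were Pfkp (-1.10), Eno2 (-1.50) and Eno3 (-2.46). Vegfa in the same cells had a log2 ratio of 2.51 (2.19 to 2.85). Of 13 HIF targets 11 were compared, each above 0 with a median of 0.38 and a range of 0.019 to 0.92, where 6380 of 10536 genes were above 0. Egln3 and Ankrd37 had too few UMIs to compare, and Egln3 was lower, at 0.302 against 0.727 CPM.

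Premature DC-like cells of both treated libraries had a higher HIF target sum than untreated ones and a glycolysis sum that was not higher. In Ndrg2-KO against untreated cells 11 of 33 members were called higher, where 9.31% of genes were, and 1 was called lower, where 5.56% of genes were. HIF targets gave 7 of the 11 calls, with a list median of 1.05. In VD3 cells 3 of 12 HIF targets were called higher, with a list median of 0.66 and 11 of 12 above 0, where 4778 of 9949 genes were above 0. The HIF target sum was 769.8 CPM in untreated, 1035 in VD3 and 1072 in Ndrg2-KO cells. Whether the treatments differ here was not tested. The glycolysis sum was 6563, 6219.6 and 6244 CPM. Ankrd37 was at 4.27 CPM in untreated, 4.48 in VD3 and 18.5 in Ndrg2-KO cells, a log2 ratio of 2.11, so it was high in the knockout alone. Bnip3 was at 16.2, 36.6 and 45 CPM and Hif1a at 146, 402 and 327, both higher in VD3 and knockout than in untreated cells.

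The remaining calls in premature DC-like cells were Pfkl (1.22), Pfkfb3 (1.44), Eno2 (3.49, from 0.2 to 2.24 CPM), Bnip3l (1.09), Egln3 (1.41), Hilpda (1.01), the Myc antagonist Mxi1 (1.30) and Ddit4 (1.24), an inhibitor of mTORC1 signalling. Eno2 rests on a level near the detection limit in untreated cells. Pfkp was the lower member (-1.18), and Slc2a1, at 83.6, 59.4 and 47.2 CPM, was lowest in the knockout. Ldha was at 662, 533 and 621 CPM and so was no higher with more Vegfa. In VD3 against untreated premature DC-like cells, 4 of 32 members were called higher, where 5.28% of genes were, and 2 were called lower, where 6.26% of genes were. Those higher were Bnip3 (1.18), Egln3 (1.4), Ddit4 (2.33) and Hif1a (1.46), and those lower were Pfkp (-2.21) and Eno3 (-1.29).

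In cycling cells, the shares were close to the background on the higher side. Ndrg2-KO against untreated gave 3 of 33 members higher, where 7.68% of genes were, and 2 lower, where 7.03% of genes were. Ankrd37 (1.14), Bnip3l (1.04) and Eno2 (1.88) were higher, and Egln3 (-1.68) and Eno3 (-1.85) lower. HIF targets summed to 957 CPM in the knockout and 918 in untreated cells while Vegfa had a log2 ratio of 4.44 (4.19 to 4.69). The untreated class fell to 2 cells at resolution 1.0, where this Vegfa ratio was 1.72, and to 1 cell without the highest Scrublet scores, where it was -2.53 with 13 members lower, and the comparison could not be made under 2 further alternatives. VD3 DCs had 16 cells in the class and were not compared. The knockout class was mostly cluster 10 and the untreated class mostly cluster 6. Within cluster 6, 132 Ndrg2-KO cells had HIF targets at 1384 CPM against 918 in untreated cells. Glycolysis there was at 7716 against 6479 CPM and Vegfa at 60.8 against 2.56. In cluster 7, which carried the cycling markers but no class, Vegfa was at 11.7 CPM in VD3 and 21.7 in untreated cells, the glycolysis list at 6247 and 6955, and the HIF targets at 1009.5 and 1278, so each was lower with VD3. Granulocyte-like cells had the highest HIF target sums of the 4 classes in each DC library, at 1447, 1361 and 1330.1 CPM in untreated, VD3 and Ndrg2-KO DCs. The first 2 values are almost wholly from cluster 4 and the last mostly from cluster 11, so no order is read from them.

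**Figure D2:**
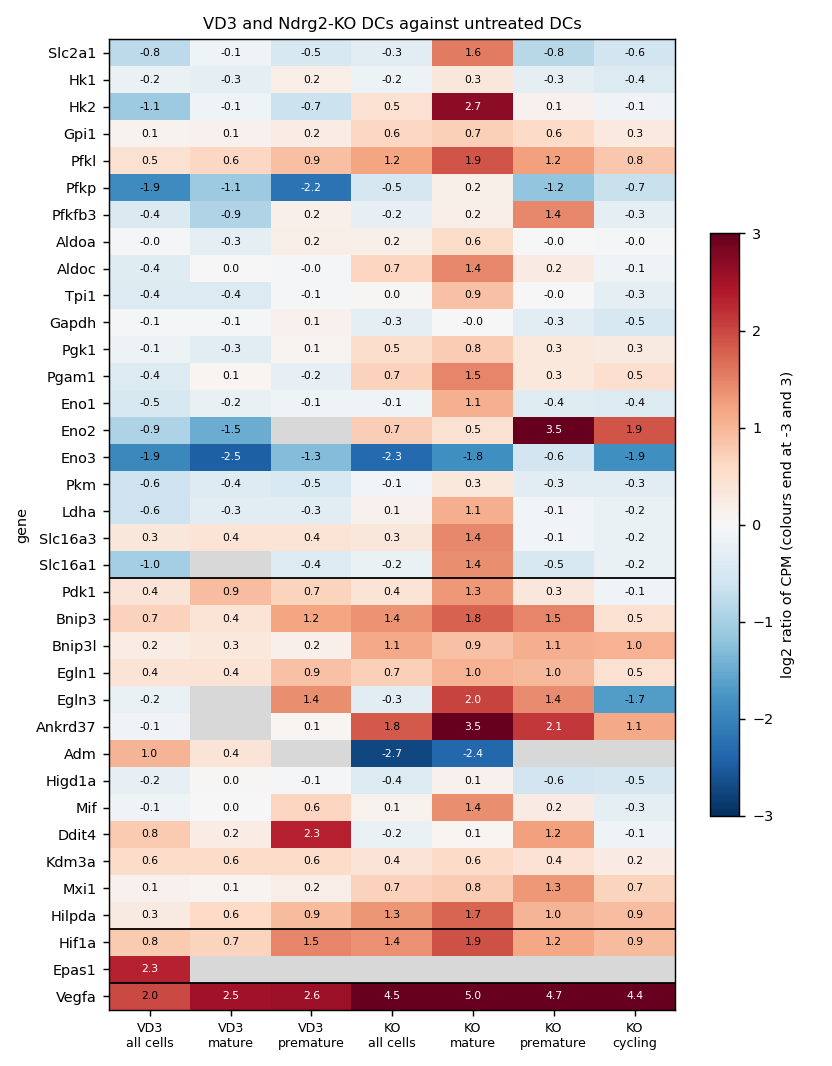
Each cell gives the log2 ratio of CPM of a gene in VD3 or Ndrg2-KO DCs (KO) against untreated DCs, over all cells and within the mature DC-like, premature DC-like and cycling classes, red for higher and blue for lower, with grey where the 2 sums held under 100 UMIs. Lines part the glycolysis members, the HIF targets, the alpha subunits and Vegfa, and the Ndrg2-KO mature column is red through most of both lists while Eno3 is blue in all 7 columns.

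In each library more members were called lower than higher in mature than in premature DC-like cells. Mature DC-like against premature DC-like cells of the same library had 20 of 33 members called lower in untreated DCs, where 27.8% of genes were, and 5 called higher, where 13.3% were. VD3 DCs had 23 of 33 lower against 22.8% of genes and 3 higher against 12.1%. Ndrg2-KO DCs had 12 of 33 lower against 17.7% of genes and 3 higher against 10.7%. The glycolysis sum was 3127 against 6563 CPM in untreated, 2735 against 6219.6 in VD3 and 4137 against 6244 in Ndrg2-KO DCs. Hk2 had log2 ratios of -4.77, -4.25 and -2.22 in these libraries, and Slc2a1 had -4.36, -4.00 and -1.99. Vegfa was also lower in mature DC-like cells, by less, at -0.78, -0.84 and -0.53. Pfkfb3 (3.80, 2.74 and 2.55) and Eno3 (4.70, 3.52 and 3.43) ran the other way in all 3 libraries.

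**Figure D3:**
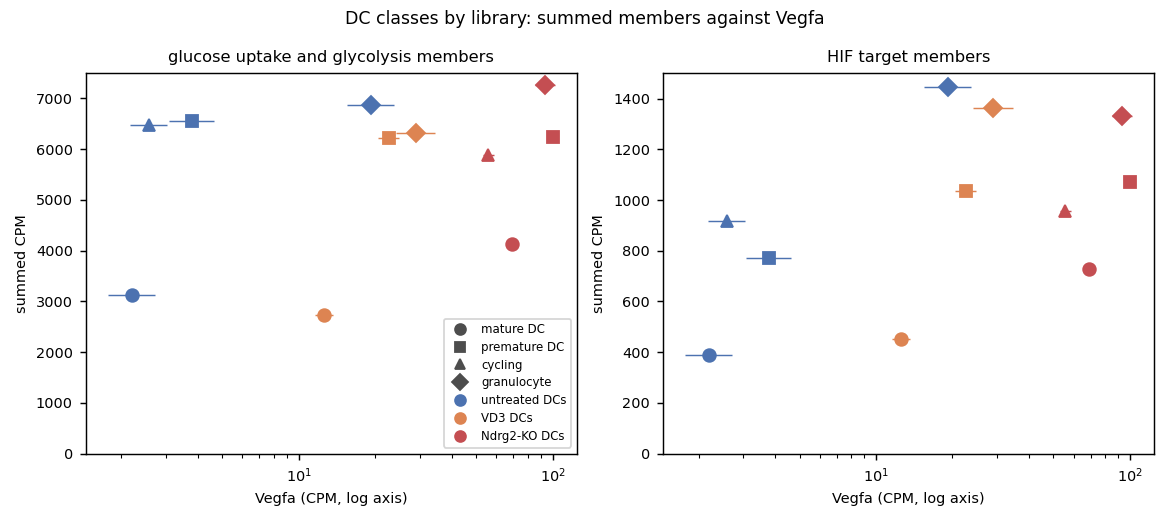
Each point is 1 DC class in 1 library, with Vegfa in CPM on a log axis and the summed CPM of the glycolysis members (left) or HIF target members (right) on a linear axis, and horizontal lines for the 95% counting interval of Vegfa. Shapes give the class and colours the library. The mature DC-like points lie lowest in both panels in every library, at 2735 to 4137 CPM for glycolysis, although their Vegfa spans 2.2 to 69.2 CPM.

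Of the 3 whole wound libraries, the one with control DCs had the lowest member sums and not the lowest Vegfa. Vegfa was at 194 CPM with control DCs, 173 with Ndrg2-KO DCs and 159.8 with blank hydrogels, with log2 ratios to control of -0.17 (-0.21 to -0.12) and -0.28 (-0.34 to -0.23). The first was -0.0075 with median-ratio scaling and -0.034 without neutrophil-like cells, so no Vegfa difference is read between Ndrg2-KO and control wounds. The glycolysis list summed to 3285, 5445 and 4749.6 CPM and the HIF targets to 996, 1737 and 1419.8. Both sums were lowest in the wounds with control DCs. Hif1a was at 272, 276 and 310 CPM. Ndrg2-KO against control wounds had 28 of 35 members above 0, where 4620 of 12207 genes were, with a median of 0.66 against -0.14 over all genes. Blank against control had 30 of 35 above 0, where 5497 of 11916 genes were, with a median of 0.48 against -0.032. These comparisons share the control library. Across the 31 cluster sums of at least 50 cells in the 3 wound libraries, in contrast, Vegfa went up with both lists, with Pearson's r on the log scale of 0.58 for glycolysis and 0.52 for HIF targets (Spearman's rho 0.41 and 0.31). The 26 such sums of the DC libraries gave 0.17 and 0.37 (0.22 and 0.39). These sums share libraries and depth and are no independent samples.

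Of 35 members, 6 were called higher in wounds with Ndrg2-KO than with control DCs, where 3.92% of genes were, and 1 was called lower, where 5.28% of genes were. Slc16a3, the lactate exporter of glycolytic cells, was at 115 CPM with control DCs, 285 with Ndrg2-KO DCs and 259.6 with blank hydrogels (log2 ratio of Ndrg2-KO to control 1.31, 1.26 to 1.37). Hilpda was at 167, 409 and 267 CPM (1.29) and Bnip3 at 63.9, 137 and 117 (1.10). All 3 were lowest with control DCs. Egln3 was at 10.9, 34.9 and 23.5 CPM (1.68), Ankrd37 at 8.83, 26.7 and 18.5 (1.60) and Gapdh at 598, 1218 and 935 (1.03). Epas1, the alpha subunit typical of endothelium, was at 47.2, 11.6 and 34.9 CPM and was the lower member (-2.02).

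Blank against control wounds had 3 of 35 members higher, where 3.06% of genes were, and 0 lower, where 3.17% of genes were. The 3 were Slc16a3 (1.18), Egln3 (1.11) and Ankrd37 (1.07), all among those higher with Ndrg2-KO DCs. With the mean over cells in place of summed UMIs none of these 3 reached 2-fold (0.81, 0.60 and 0.79). Between wounds with Ndrg2-KO DCs and blank hydrogels none of 35 was called higher, where 1.39% of genes were, and Epas1 (-1.58) was the 1 called lower, where 1.32% of genes were. The largest difference upward there was Adm at 0.69, and Hilpda had 0.62 (0.58 to 0.65).

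Cell makeup moved with these sums. Neutrophil-like cells were 23.5% of the cells with control DCs, 51% with Ndrg2-KO DCs and 45.5% with blank hydrogels, and fibroblast-like cells 24.1%, 8.15% and 9.49%. The members differed between these cells. Hilpda stood at 469.7 and 924 CPM in the 2 neutrophil-like clusters and 42.6 in the fibroblast-like cluster, and Slc16a3 at 964 and 505 against 61.7. Hk2 went the other way, at 85.4 and 150.2 CPM against 608, and its library level was highest with control DCs, at 393, 283 and 251 CPM. Epas1 was highest in endothelial-like cells (376 CPM), of which the libraries held 27, 18 and 10. Without neutrophil-like cells, an alternative chosen after seeing the data, 7 members were called higher in Ndrg2-KO than in control wounds, where 3.18% of genes were, and Epas1 (-1.80) was called lower, where 2.99% were. Slc16a3 (1.17), Hilpda (1.03), Egln3 (1.87), Ankrd37 (1.25) and Gapdh (1.06) were still among them, Aldoc (1.10) and Eno1 (1.06) entered, and Bnip3 had 0.99, just under 2-fold. The part of cell makeup in the other differences was not tested.

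Within wound classes the member medians were 0.35 in neutrophil-like, 0.51 in fibroblast-like and 0.35 in macrophage-like cells, beside 0.66 in the whole libraries. Medians over all genes of these classes are not given here, so the sizes are not ranked. Neutrophil-like cells had 2 of 29 members higher with Ndrg2-KO than with control DCs, where 4.31% of genes were, and 0 lower, where 2.19% were. These were Tpi1 (1.35), triose phosphate isomerase, and Higd1a (1.05). Their HIF targets summed to 2152 CPM against 1389.5, with Hilpda at 829 against 461 CPM. The class is 2 clusters in unlike mix, since the cluster with more Hilpda held 1234 of 2896 cells with Ndrg2-KO DCs and 112 of 458 with control DCs. Within it the HIF target sum was 2717 against 1556 CPM, and within the other 1588 against 1327. Vegfa was at 71.2 against 43 CPM, and T or NK-like cells, taken below as background, had 75.6 against 38.5, so no Vegfa difference is read for neutrophil-like cells. Slc16a3 was at 767 against 821 CPM, so its library difference was not present within neutrophil-like cells.

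Fibroblast-like cells had 0 of 33 members higher, where 2.9% of genes were, and 1 lower, where 0.953% were. The count higher was 1 to 4 under the alternatives for clustering and cells. The lower one was Epas1, at 26.2 CPM with Ndrg2-KO and 69.5 with control DCs (-1.41). HIF targets summed to 1126 against 772 CPM and the glycolysis list to 4112 against 2829.9, and Vegfa was at 182 against 163 CPM (0.16). Macrophage-like cells had 3 of 29 higher, where 2.55% of genes were, and 0 lower, where 0.575% were. Gapdh (1.06), Eno1 (1.15) and Slc16a3 (1.30, from 38 to 93.6 CPM) were these 3, while Vegfa was at 108 against 129 CPM (-0.26). The count of 3 became 4 to 6 under the same alternatives, and 6 equals that of the whole libraries.

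The highest Vegfa level of any wound cluster, 390.3 CPM, was in a cluster led by Mmp12, Arg1 and Mmp13 that met too few markers for a name, here cluster 2, with 183, 729 and 446 cells. There Vegfa was at 639 CPM with control DCs, 377 with Ndrg2-KO DCs and 307 with blank hydrogels, highest in control wounds, with log2 ratios to control of -0.76 (-0.85 to -0.68) and -1.05 (-1.15 to -0.96). Against the control library the members went the opposite way, while between Ndrg2-KO and blank wounds both Vegfa and the member sums were higher with Ndrg2-KO DCs. The glycolysis list summed to 6143, 9600.4 and 7661 CPM and the HIF targets to 2027, 3159 and 2344. For Ndrg2-KO against control, 3 of 31 members were called higher, where 4.18% of genes were, and 0 lower, where 1.63% were. Gapdh (1.13), Egln3 (1.42, from 40.8 to 109 CPM) and Higd1a (1.16) were called, and the member median was 0.56 against -0.071 over all genes. For blank against control, 0 of 31 were higher, where 1.75% of genes were, and 0 lower, where 0.693% were.

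**Figure D4:**
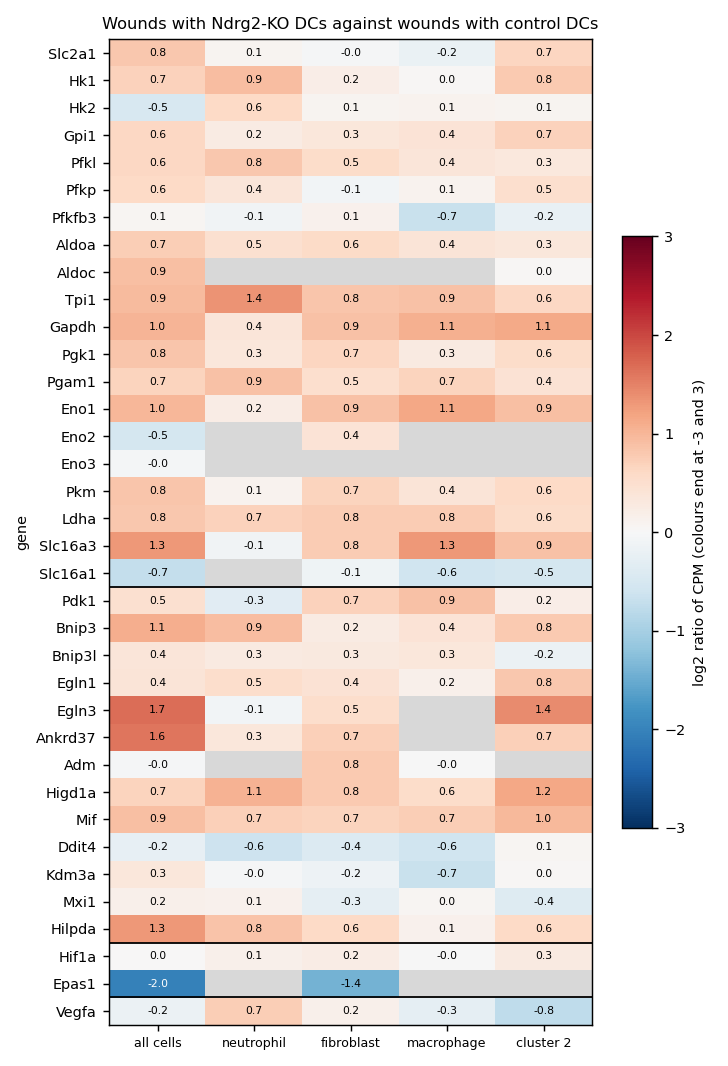
Each cell gives the log2 ratio of CPM of a gene in wounds with Ndrg2-KO DCs against wounds with control DCs, over all cells, in 3 classes and in cluster 2, red for higher and blue for lower, with grey where the 2 sums held under 100 UMIs. Lines part the glycolysis members, the HIF targets, the alpha subunits and Vegfa. Most members are red in every column, whereas Vegfa is at -0.76 in cluster 2. The Vegfa cell of neutrophil-like cells is not read, since T or NK-like cells differed by as much.

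Cells with a Vegfa UMI were then compared with cells of the same library and class without one, after each cell was drawn down to 2000 UMIs for DCs or 1000 for wound cells. At that depth 245 of 1988 mature DC-like Ndrg2-KO cells had a Vegfa UMI (12.3%, exact binomial 95% interval 10.9 to 13.8), against 0.532% in untreated and 2.87% in VD3 cells. The 245 cells had 5435 CPM of the glycolysis list against 3659 in the cells without, a log2 ratio of 0.57, and 1031 against 651 CPM of the HIF targets, a log2 ratio of 0.66. Mif (1.03), Pgam1 (0.88), Ldha (0.83) and Pgk1 (0.77) were among the members higher in the cells with a Vegfa UMI, and Eno3 was lower (-2.03). Over 20 random draws the ratios ranged from 0.34 to 0.68 and from 0.53 to 0.98, above 0 in each draw. The genes named here differed in the same directions between premature and mature DC-like Ndrg2-KO cells. Pgam1, for example, was at 858 against 257 CPM and Eno3 at 2.81 against 30.3. The part of maturation within the class in these ratios was not tested.

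In premature DC-like Ndrg2-KO cells, 689 of the cells had a Vegfa UMI and 3330 did not. HIF targets stood at 1488 CPM with and 1022 without (0.54; 0.49 to 0.62 over the draws), and the glycolysis list at 7694 against 6079.6 (0.34; 0.27 to 0.37). Hilpda was at 83.5 against 21.3 CPM (1.97, 1.60 to 2.33), Ankrd37 at 46.4 against 15.8 (1.56) and Bnip3 at 108 against 37.2 (1.54). These 3 targets together with Hk2 (1.04), Kdm3a (1.01), a histone demethylase, and Pfkfb3 (1.0) were past 2-fold, 6 of 28 members compared, where 0.226% of all genes were. None was past 2-fold lower, where 0.332% of genes were. Bnip3l (0.086) and Higd1a (0.0066) did not differ beyond their counting intervals. All 10 HIF targets compared were above 0, with a median of 0.71.

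The pattern was weaker in the other DC cells. Cycling Ndrg2-KO cells with Vegfa had a HIF target ratio of 0.15 (-0.087 to 0.19 over the draws), and granulocyte-like Ndrg2-KO cells had 0.014 (-0.063 to 0.37). Mature DC-like VD3 cells with Vegfa, 95 of them, had 0.016 for HIF targets (-0.26 to 0.41) and -0.065 for glycolysis. Whether these classes differ from the mature and premature Ndrg2-KO cells was not tested, and untreated DCs, with 4 to 31 such cells per class, stayed under the 50 asked for in the main draw.

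A Vegfa UMI can come from free RNA in the droplet, so a cell with one is not called expressing. No class of the Ndrg2-KO DC library surely lacks the gene, and its lowest share at this depth was 2.55% (4 of 157 cells, 0.698 to 6.39), in mature DC-like cells of the cluster that held most untreated ones, against 13.2% in the main mature cluster and 17.2% in the main premature one. The median depths before drawing were 8229, 11476 and 19155 UMIs. In Ndrg2-KO wounds T or NK-like cells had 4.12% (2.07 to 7.25, median 5061 UMIs) and erythroid-like cells 3.17% (0.387 to 11, 6959 UMIs). The neutrophil-like clusters, at 6.11% and 6.62% with medians of 2730 and 3205 UMIs, lay within the T or NK-like interval, and no Vegfa expression is read from them.

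In wounds, macrophage-like cells with a Vegfa UMI had more HIF target RNA than those without. With Ndrg2-KO DCs the levels were 2056 against 841 CPM, a log2 ratio of 1.29, with a median of 0.97 and a range of 0.58 to 1.34 over the draws. Hilpda (870.4 against 257 CPM) and Mif (611 against 203) carried it. Nearly all cells with a Vegfa UMI were in 1 of the 2 macrophage-like clusters, with 53 of 432 cells against 1 of 139 in the cluster led by Cd209f and Fcna, whose cells were deeper before drawing (median 20433 against 11466 UMIs). Within the former cluster the HIF target ratio was 1.12 (0.80 to 1.44). In the control and blank libraries medians over the draws were 0.87 and 0.79 from 30 cells with a Vegfa UMI each, and monocyte-like cells had 0.74, 0.64 and 0.40 in control, Ndrg2-KO and blank wounds from 38, 54 and 47. Most of these are under the 50 cells asked for in the main draw and are given as values alone.

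Cluster 2 had the highest Vegfa and no such difference in glycolysis, with medians of 0.035, -0.021 and 0.09 over the draws in control, Ndrg2-KO and blank wounds, and HIF target medians of 0.11 (-0.18 to 0.57), 0.12 (0.026 to 0.23) and 0.39 (0.093 to 0.62), above 0 in 20 of 20 draws in the last 2. In fibroblast-like cells of Ndrg2-KO wounds the HIF target ratio was 0.74 in the main draw but ranged from -0.27 to 0.49 over 20 others, so no difference is read from it. In control wounds the same cells had medians of 0.52 for glycolysis (0.27 to 0.88) and 0.43 for HIF targets (-0.15 to 1.10).

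**Figure D5:**
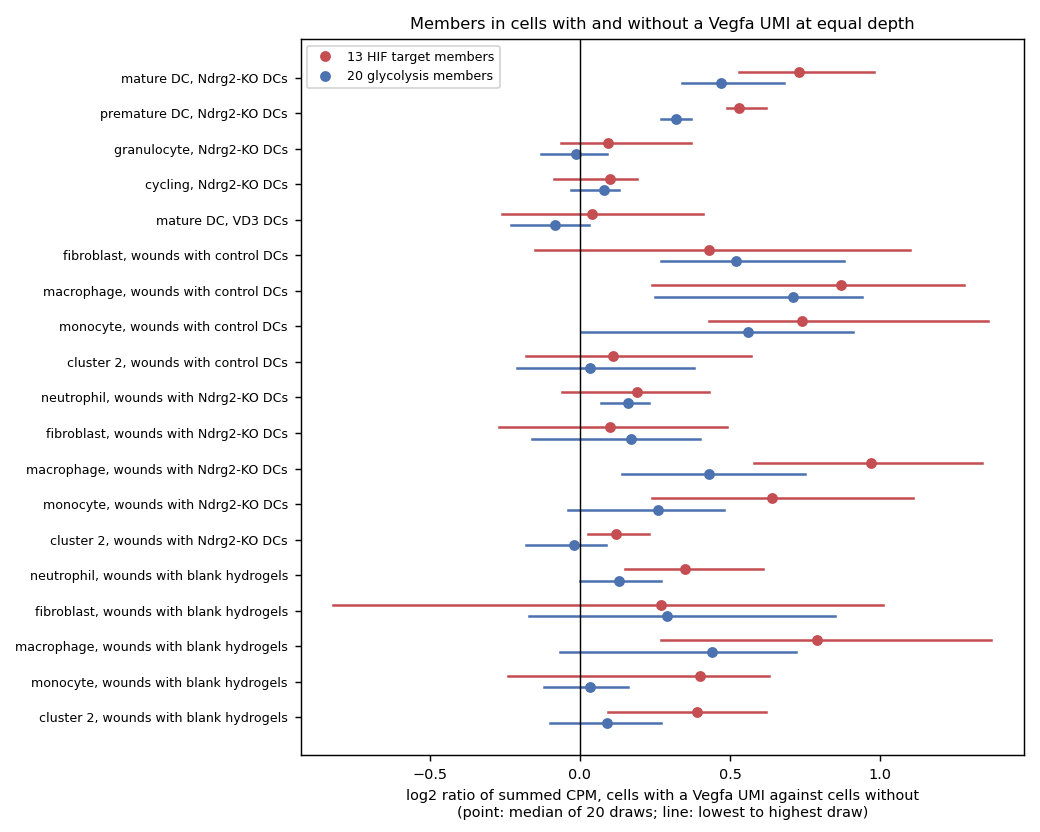
Log2 ratio of summed glycolysis and HIF target CPM between cells with and without a Vegfa UMI, within 1 library and class at a fixed depth, as the median and range over 20 random draws. Mature and premature DC-like Ndrg2-KO cells and macrophage-like wound cells lie above 0 in every draw for HIF targets, as does cluster 2 in Ndrg2-KO and blank wounds, while cluster 2 lies near 0 for glycolysis. Neutrophil-like cells are plotted but not read, since their share with a Vegfa UMI was near that of T or NK-like cells.

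Per cell, glycolysis RNA was spread over most cells. At 2000 UMIs the median DC held 10 glycolysis UMIs in untreated, 8 in VD3 and 10 in Ndrg2-KO DCs, and 1, 1 and 2 HIF target UMIs. Mature DC-like cells held a median of 6, 5 and 6 glycolysis UMIs. The knockout differed mainly at its upper end there, with a 90th percentile of 13 against 10 in untreated cells.

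Genes of the same pathways outside the 35 gave a mixed picture. Of 20 other glycolysis and glycogen genes, 5 were called higher and 0 lower in Ndrg2-KO against untreated DCs, where 9.12% and 7.94% of all genes were. Ldhb, the heart-type lactate dehydrogenase, was at 60 against 15 CPM (2.0), the hexokinase Hk3 at 62 against 17.2 (1.85) and Pfkfb4 at 19.3 against 7.83 (1.30). Of 28 other HIF pathway genes, 5 were called higher and 6 lower, against the same shares. Nos2 (4.52), the inducible nitric oxide synthase, Arnt2 (3.29) and the collagen prolyl hydroxylase P4ha2 (3.16) were higher, whereas the growth factor Pgf (-3.43), endothelin Edn1 (-2.09) and Ndrg1 (-1.60), a classic hypoxia marker and relative of Ndrg2, were lower. In VD3 DCs, where 3.68% and 6.61% of all genes were called higher and lower, 0 of 20 other glycolysis genes were called. Of 25 other HIF genes 1 was higher, Arnt2 (2.44), and 4 were lower, Edn1 (-3.43), Angptl4 (-2.15) and Pgf (-1.38) among them.

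Genes of the integrated stress response driven by ATF4, a route to Vegfa RNA that does not need HIF, gave more calls lower than higher in whole Ndrg2-KO libraries. Of 16 compared, 1 was called higher and 7 lower against untreated DCs, beside 9.12% and 7.94% of all genes. Their summed level was 1597 CPM in Ndrg2-KO and 1437 in untreated DCs. In mature DC-like cells the sum was 1258 against 764 CPM, with 8 genes above 0 and 5 below and a median of 0.16, whereas premature DC-like cells had 1644 against 1877 and a median of -0.68. In whole libraries Atf3, a stress-induced transcription factor, was at 141 against 69.1 CPM (1.02). Chac1 (-2.94), which degrades glutathione, Cth (-2.70), an enzyme of cysteine synthesis, and Phgdh (-2.69), the first enzyme of serine synthesis, were lower, Phgdh at 9.11 against 59 CPM. In VD3 DCs 0 were higher and 2 lower, beside 3.68% and 6.61% of genes, the amino acid transporter Slc7a5 (-1.35) and Psat1 (-1.10) of serine synthesis.

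In wounds with Ndrg2-KO against control DCs, 4 of 18 other glycolysis genes were called higher and 1 lower, where 3.92% and 5.28% of all genes were. Slc2a3, a glucose transporter with high affinity, was at 103 against 24.3 CPM (2.09), and Slc2a6 (1.59) and Bpgm (1.51), an enzyme abundant in red cells, were also higher. Erythroid-like cells, led by haemoglobin genes and Bpgm, numbered 63 of the Ndrg2-KO wound cells and 4 of the control. Pdk2 was lower (-1.12). Against the same shares, 2 of 29 other HIF genes were higher and 0 lower, Nos2 at 98.4 against 30.2 CPM (1.70) and the oxidoreductase Ero1l at 195 against 62.3 (1.65). Of 17 stress response genes 1 was higher, the cystine transporter Slc7a11 at 754 against 219 CPM (1.78), and 1 was lower, Vldlr (-1.82).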

How the data were processed

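Libraries were made by droplet single-cell RNA sequencing. The authors deposited filtered matrices of UMI counts per gene and barcode, made with Cell Ranger. The submitters' processing notes also name Seurat 3.1.1 and the build mm9, whereas the methods of the study name GRCm38. No file coordinate was used, and promoter windows are RefSeq GRCm38.p6. Barcodes were dropped when fewer than 300 genes were detected, when 100000 UMIs or more were counted, or when mitochondrial genes took 10% or more, and the last filter removed 1.95% to 12.7% of barcodes. UMIs were summed per gene and library or class and scaled to CPM. With 1 library per group no test was run, and ratios carry exact conditional binomial 95% intervals. A gene was compared when both sums together reached 100 UMIs, and the floor was 3 UMIs. Cells were clustered in Seurat 5.3.0 under R 4.3.3 (2000 variable genes without the members, Vegfa and Ndrg2, 15 principal components, 15 neighbours, Louvain resolution 0.5). A class needed at least 3 markers at 50 CPM and 2-fold. That DC clusters with a median under 1% mitochondrial UMIs stay unclassed was set after seeing the data. Scrublet in Scanpy 1.11.5 marked at most 0.873% of cells by its own threshold and was not taken as having worked, so no doublets were removed. An alternative left out the highest 6% of its scores. Libraries shared up to 25 barcodes. Aldoa has 2 feature rows, and the one with nearly all UMIs was used. Near copies such as Eno1b, Aldoart1 and Ldhc held at most 366 UMIs in a library. Sums were computed in Python 3.11.15 with numpy 2.4.6, scipy 1.17.1 and pandas 2.3.3, and tested on simulated data.

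The members and lists were chosen with earlier results of these data known. Genes named are all members and Vegfa, and of other lists at most the 3 largest differences in each direction per comparison. The series' design text speaks of sorted cells from joined animals, which the sample labels do not, and no grouping rests on it. Leaving out neutrophil-like cells or clusters low in mitochondrial UMIs, the 20 random draws, the share of cells with a Vegfa UMI by cluster, single clusters of a class, and cluster 2 were alternatives chosen after seeing the data.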

Additional observations from a re-analysis of the deposited data

Results flagged for a closer look

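Egln3, the prolyl hydroxylase gene, was looked at again because its difference between Ndrg2-KO and untreated DCs ran in opposite directions in different cell classes. Its log2 ratio was 2.02 in mature DC-like cells (2.95 against 0.727 CPM), 1.41 in premature DC-like cells (6.06 against 2.28 CPM) and -1.68 in cycling cells (2.77 against 8.87 CPM). Each class is 1 sum per library, so the difference between the classes was not tested. Among these classes the opposite direction rests on the cycling comparison. Its untreated class fell to 2 cells at resolution 1.0 and to 1 cell without the highest Scrublet scores. Granulocyte-like cells also had less Egln3 in the knockout, at 19.1 against 39.2 CPM, but were mostly cluster 11 against cluster 4. No group had enough libraries for a search for a library far from its own group.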

How the results depend on the processing

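No paired analysis was possible because each group is 1 library, and for the same reason no replicate could be left out. All members called in whole libraries kept their direction under each alternative for cells and scaling. Vegfa ratios stayed between 4.08 and 4.63 for Ndrg2-KO and between 1.5 and 2.08 for VD3 against untreated DCs. The mature DC-like count of 17 members higher in Ndrg2-KO DCs lay between 15 and 17, and the premature count of 11 between 10 and 11. The cause of the changes below was not tested unless the setting itself gives it.

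With the mean of CPM over cells, the median of all genes in Ndrg2-KO against control wounds moved from -0.14 to -0.46 and in blank against control from -0.032 to -0.24. Counts then became 1 higher for VD3 against untreated, 3 higher for Ndrg2-KO against untreated, 2 lower for Ndrg2-KO against VD3, 3 lower for Ndrg2-KO against control wounds, 1 higher and 2 lower for blank against control, and 2 lower for Ndrg2-KO against blank. Vegfa became 1.5 and 4.08 in the DCs and -0.32, -0.39 and 0.064 in these wound comparisons. Median-ratio scaling moved the wound median of Ndrg2-KO against control to 0.018, gave 10 members higher, and put Vegfa at -0.0075 there and at 0.22 against blank. Totals without mitochondrial and ribosomal protein genes moved the median of Ndrg2-KO against VD3 from 0.0014 to -0.19, with 4 members higher, 3 lower and Vegfa at 2.36.

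Under 5% mitochondrial UMIs, VD3 against untreated had 0 higher and Vegfa at 1.62, Ndrg2-KO against untreated 1 lower, and Ndrg2-KO against VD3 0 lower and Vegfa at 2.80. Within classes it gave 2 higher for mature VD3, 0 lower for mature Ndrg2-KO, 0 higher and 5 lower for premature VD3 (from 2 VD3 cells) and 1 higher for fibroblast-like cells. All deposited barcodes gave 1 higher for VD3 against untreated, 2 lower for Ndrg2-KO against VD3, and Vegfa at 0.051 for Ndrg2-KO against blank wounds, and a minimum of 300 UMIs in place of genes gave 0.036 there. A minimum of 200 UMIs gave 1 higher for VD3 against untreated.

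At 1.5-fold the counts higher and lower were 5 and 8 for VD3 against untreated, 12 higher for Ndrg2-KO against untreated, 13 and 3 for Ndrg2-KO against VD3, 21 and 2 for Ndrg2-KO against control wounds, 13 and 2 for blank against control, and 2 and 2 for Ndrg2-KO against blank.

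With 30 principal components, premature VD3 had 1 lower, fibroblast-like cells 1 higher and macrophage-like cells 5 higher. Resolution 1.0 gave premature Ndrg2-KO 2 lower, cycling 4 lower, fibroblast-like 1 higher and macrophage-like 6 higher, and members kept among the variable genes gave fibroblast-like 1 higher. The cycling comparison is fragile, since the untreated class held 2 cells at resolution 1.0 and 1 cell without the highest Scrublet scores, where Vegfa in that class was 1.72 and -2.53 in place of 4.44, and it could not be made with 30 components or under 5% mitochondrial UMIs. Without the highest 6% of Scrublet scores, premature VD3 had 1 lower, cycling 1 higher and 13 lower, fibroblast-like 4 higher, macrophage-like 5 higher and cluster 2 had 5 higher, and Vegfa in Ndrg2-KO against control wounds was -0.23. Without DC clusters low in mitochondrial UMIs, Ndrg2-KO against VD3 had 2 lower. Without neutrophil-like cells Vegfa was -0.034 and -0.18 in Ndrg2-KO and blank against control wounds.

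For cells with against without a Vegfa UMI, mature Ndrg2-KO glycolysis was 0.46 at 1000 UMIs per cell, 0.40 at 4000, 0.47 with another seed and as the median of 20 draws, and 0.45 without the highest Scrublet scores. Premature Ndrg2-KO glycolysis was 0.28, 0.27 and 0.27 under the first 3 of these, and HIF targets 0.43 at 4000 and 0.47 with another seed. In Ndrg2-KO wounds at 500 UMIs, neutrophil-like cells had 0.28 for glycolysis and 0.31 for HIF targets, and HIF targets were 0.74 in macrophage-like cells and changed sign to -0.28 in fibroblast-like cells. The neutrophil-like values are given for completeness, since free RNA cannot be told apart from expression there. Another seed gave HIF target ratios of 0.30 in neutrophil-like and 0.0036 in fibroblast-like cells, 2000 UMIs gave 0.32 in the latter, and 20 draws gave 0.97 in macrophage-like and 0.10 in fibroblast-like cells. Without the highest Scrublet scores, glycolysis was 0.012 in neutrophil-like and 0.066 in macrophage-like cells, and HIF targets were 0.066 in fibroblast-like cells. HIF targets of the median wound cell fell to 0% of its UMIs at 500 UMIs with control DCs and blank hydrogels, since 1 UMI is the smallest step at that depth.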
